A study of Mus musculus with 18 samples.

Results

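The 9 genes described here encode fibroblast growth factors (FGFs) and their receptors: the ligands *Fgf4*, *Fgf5*, *Fgf15*, *Fgf17* and *Fgf8*, and the receptors *Fgfr1*, *Fgfr2*, *Fgfr3* and *Fgfr4*. They were picked by symbol, as family members, from the 24369 genes of the deposited expression table. RNA-seq was performed on 18 libraries of E14 mouse embryonic stem cells (mESCs) carrying Cas9 and a destabilised GFP reporter of *Rex1* (*Zfp42*), a gene active in naive mESCs. In the first experiment, 12 libraries sampled Rex1GFPd2-Cas9 cells at days 0, 1, 2 and 3 of differentiation, with 3 libraries a day. In the second, GFP+ cells were sorted from 3 genotypes with 2 libraries each: Rex1GFPd2-Cas9 wild-type, *Nprl2*-/- and *Tsc2*-/-, all on the same Rex1GFPd2-Cas9 background and without differentiation. *Nprl2* encodes a subunit of Gator1 and *Tsc2* a subunit of the Tsc complex, both of which restrain mTORC1. The knockout (KO) lines were made by deleting a critical exon with paired guides. The study kept its mESCs on inactivated embryonic fibroblasts in serum and LIF or, where it says so, on gelatin with LIF and inhibitors of MEK and Gsk3. Its differentiation medium (NDiff227) held neither LIF nor these inhibitors. Which culture the day 0 cells came from is not given in the labels. The labels do not say whether libraries of a group came from separate clones or cultures, so p-values measure the spread between these libraries, which may be technical.

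FGF ligands are secreted proteins that bind receptor tyrosine kinases together with heparan sulfate, after which Frs2, Grb2 and Sos pass the signal through Ras and Raf to Erk. In mESCs, autocrine Fgf4 acting through Fgfr1 and Fgfr2 drives the Erk activity that moves cells out of the naive state, and *Fgf5* is the classical marker of the primitive ectoderm stage that follows. The receptors differ in which ligands they bind, partly through alternative exons in the third immunoglobulin-like loop.

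The libraries held 12503005 to 15305054 estimated counts in the time course and 8610357 to 13780861 in the GFP+ experiment. *Zfp42* was at 726 to 804 TPM at day 0 and 11.3 to 14.4 TPM at day 3, *Nprl2* at 8.09 and 8.65 TPM in *Nprl2* KO against 16.1 and 17.0 TPM in wild-type, and *Tsc2* at 18.8 and 20.3 TPM in *Tsc2* KO against 45.0 and 44.9 TPM in wild-type, so none of these went against its label. TPM, a length-corrected share of the transcripts in a library, is used here for every level. Fold changes come from the counts, tested with edgeR across 14382 genes in the time course and 13725 genes in the GFP+ libraries, and a gene is said to be called when its Benjamini-Hochberg adjusted p is under 0.05. All 9 members passed the filter on low counts in the time course. In the GFP+ libraries 8 did, and *Fgf8*, at 3 to 8 counts, did not.

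Over 3 days the ligand mixture turned over while the receptors gained *Fgfr2* and *Fgfr1*. In whole populations such as these, fewer cells with a transcript and less of it per cell cannot be told apart. Between day 0 and day 3, 8 of 9 members were called, 5 higher and 3 lower, against 70.9% of all genes tested (35.0% higher and 35.9% lower), and the exception was *Fgfr3*. The first day brought 3 members up and 1 down, where 60.9% of genes were called (30.1% up and 30.8% down). From day 1 to day 2, 1 member rose and 3 fell, with 62.1% of genes called (32.5% up and 29.6% down). From day 2 to day 3, 3 rose and 2 fell, with 31.5% of genes called (15.9% up and 15.6% down). Over longer spans, 7 members were called between day 0 and day 2 (5 up and 2 down, with 66.6% of genes called) and 7 between day 1 and day 3 (4 up and 3 down, with 71.2%). The members' shares lay on either side of the background, so nothing is read from the number called. The median size of the log2 fold change from day 0 to day 3 was 2.47 over the members and 0.51 over all genes tested, and over the first day it was 0.57 against 0.40. Over the 9 tested genes among the other FGF ligands and *Fgfrl1* it was 0.93 and 1.13. The members were chosen with earlier results of these data known, and *Fgf5*, *Fgf8* and *Fgf15* started from 1 to 17 counts a library. Nothing is therefore read from the members' median.

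*Fgf4* (chr7:144861386-144865245, GRCm38), the autocrine ligand of naive mESCs, was the most abundant of the ligands until day 2. It stood at 168, 174 and 168 TPM in the day 0 libraries and at 233, 244 and 235 TPM at day 1. It was then at 83.1, 97.6 and 68.1 TPM at day 2 and at 20.9, 44.7 and 32.0 TPM at day 3. No 2 days overlapped, and the order was day 1, day 0, day 2, day 3. *Fgf4* fell by 1.63 on the log2 scale from day 1 to day 2 (SE 0.23, edgeR adjusted p = 0.0002) and by 1.40 from day 2 to day 3 (SE 0.24, adjusted p = 0.0026), and day 2 was below day 0 (log2 fold change -1.07, adjusted p = 0.00226). The step from day 0 to day 1 had a log2 fold change of 0.55 (SE 0.22) and an adjusted p of 0.0527, which missed the threshold when all 12 libraries shared an estimate of the spread. The day 0 and day 1 libraries lay closer together than those of later days, and with these 6 libraries fitted alone the adjusted p was 3.51e-07. It was also under 0.05 without day 2 library 3 (0.0489), day 3 library 1 (0.0057) or day 3 library 2 (0.00492), and by DESeq2 (0.043). In all, 8 of 20 alternatives called this step, and leaving out a library gave an edgeR adjusted p of up to 0.117.

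*Fgf5* (chr5:98254184-98277033, GRCm38) was switched on within the first day and stayed on. The day 0 libraries held 0.478, 0.337 and 0.258 TPM, from 4 to 7 counts each, and the day 1 libraries 48.5, 51.3 and 42.0 TPM, from 709 to 953 counts. The log2 fold change of 7.18 (SE 0.20, edgeR adjusted p = 2.27e-15) was the 11th largest rise of 14382 genes over the first day. Day 2 held 56.3, 64.6 and 50.1 TPM, and day 3 held 58.5, 64.0 and 68.1 TPM. Neighbouring days after day 1 overlapped and were not called (adjusted p = 0.169 and 0.402), although day 3 was above day 1 in every library (log2 fold change 0.27, adjusted p = 0.0189). That small difference was lost without day 1 library 3 (0.17, adjusted p = 0.123) or day 3 library 3 (0.23, adjusted p = 0.069).

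RefSeq lists a full-length *Fgf5* transcript of 3 exons and a short form that skips the middle exon (chr5:98261943-98262046, 104 bases). Skipping it shifts the reading frame, and translation stops soon after the new junction. The middle exon is shown with 20 bases on either side because it is what the estimates of the 2 forms turn on, with the exon in capitals, and the junction of the short form is shown with its stop codon in capitals.
Fgf5 middle exon: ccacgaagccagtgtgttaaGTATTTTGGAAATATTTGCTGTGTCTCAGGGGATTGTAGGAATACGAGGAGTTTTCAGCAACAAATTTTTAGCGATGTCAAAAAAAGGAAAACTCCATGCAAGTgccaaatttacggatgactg
Fgf5 short form junction: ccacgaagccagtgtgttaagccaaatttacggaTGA
The full-length form made up 74.6 to 87.6% of *Fgf5* TPM at day 1, 74.9 to 79.6% at day 2 and 74.0 to 82.5% at day 3, so the ranges overlapped. At day 0 the few reads (4.25 to 7.49 estimated counts a library) were all assigned to the short form, and the full-length form is listed at 0 there, too few to compare shares.

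*Fgf15* (chr7:144896532-144900953, GRCm38) encodes an endocrine FGF that is expressed in the early neural tube and later in the gut. It lies 31286 bases from *Fgf4*, and it followed another course. It was at 1.07, 1.22 and 0.591 TPM at day 0 and at 24.7, 25.9 and 22.6 TPM at day 1, a log2 fold change of 4.71 (SE 0.36, edgeR adjusted p = 1.81e-07). It was at 8.60, 14.5 and 8.67 TPM at day 2, a fall by 1.31 on the log2 scale (SE 0.25, adjusted p = 0.000583), with no overlap with day 1. At day 3 it was at 10.02, 20.5 and 18.2 TPM, and library 1 lay among the day 2 libraries. The step from day 2 to day 3 was not called (0.56, SE 0.26, adjusted p = 0.122), but was without day 3 library 1 (0.83, adjusted p = 0.00543) or day 2 library 2 (0.87, adjusted p = 0.0234). Day 1 was the peak, above day 3 in every library (adjusted p = 0.0132, or 0.061 by limma on log2(TPM + 0.1)), and day 3 remained above day 0 by 3.96 on the log2 scale (SE 0.38, adjusted p = 8.77e-07).

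*Fgf17* (chr14:70636203-70642268, GRCm38) and *Fgf8* (chr19:45736491-45742941, GRCm38) belong to the same FGF subfamily, act in gastrulation and brain patterning, and ended on opposite sides of their day 0 level, although both rose from day 2 to day 3. *Fgf17* was highest at day 0, at 11.7, 9.77 and 14.8 TPM, and held 2.88, 2.43 and 2.77 TPM at day 1. It reached its lowest level at day 2, at 1.61, 1.36 and 1.82 TPM, and recovered in part to 5.33, 4.16 and 3.35 TPM at day 3. It fell by 2.09 on the log2 scale over the first day (SE 0.21, edgeR adjusted p = 6.61e-08) and by 0.86 over the second (SE 0.28, adjusted p = 0.0109). It then rose by 1.39 over the third (SE 0.26, adjusted p = 0.000595). Day 3 lay above day 1 in every library, with an adjusted p of 0.0522. An annotated lncRNA overlaps *Fgf17* and another overlaps *Fgf15*, and the sources used here do not say whether strand was used in the quantification, so reads of the overlapping parts may be shared.

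*Fgf8* was close to the limit of detection at first, with 0.489, 0.921 and 0.155 TPM at day 0 and 0.558, 1.23 and 0.469 TPM at day 1, from 1 to 9 counts a library. It was at 1.09, 2.07 and 2.88 TPM at day 2 and at 4.11, 7.67 and 14.6 TPM at day 3. Day 3 lay above every earlier library, and its 3 libraries spread widely. The rise from day 2 to day 3 was 2.17 on the log2 scale (SE 0.43, edgeR adjusted p = 0.00155) and was the 41st largest of 14382 genes. Summed over libraries, *Fgf8* had 190 counts at day 3 and 11 at day 0, a ratio per total count of 17.1, with an exact 95% interval of 9.37 to 34.9 that covers counting error only. The earlier steps were not called (adjusted p = 0.573 and 0.0962). Day 2 was called above day 0 (1.85, SE 0.70, adjusted p = 0.0275), but not without day 0 library 1 or 3 or day 2 library 2 or 3 (adjusted p = 0.0628 to 0.113). *T*, a marker of the primitive streak, where *Fgf8* is expressed in the embryo, stood in the same order among the day 3 libraries, at 0.740, 1.64 and 4.25 TPM. So did the sum of the 8 primitive streak markers, at 4.87, 6.33 and 15.3 TPM. That sum was 4.60 to 5.99 TPM at day 2 and 8.94 to 9.70 TPM at day 0, when *Fgf8* was lowest. Not every marker kept the order: *Wnt3* was at 2.51, 2.24 and 6.70 CPM at day 3. The part of these markers in the *Fgf8* level was not tested.

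**Figure D1:**
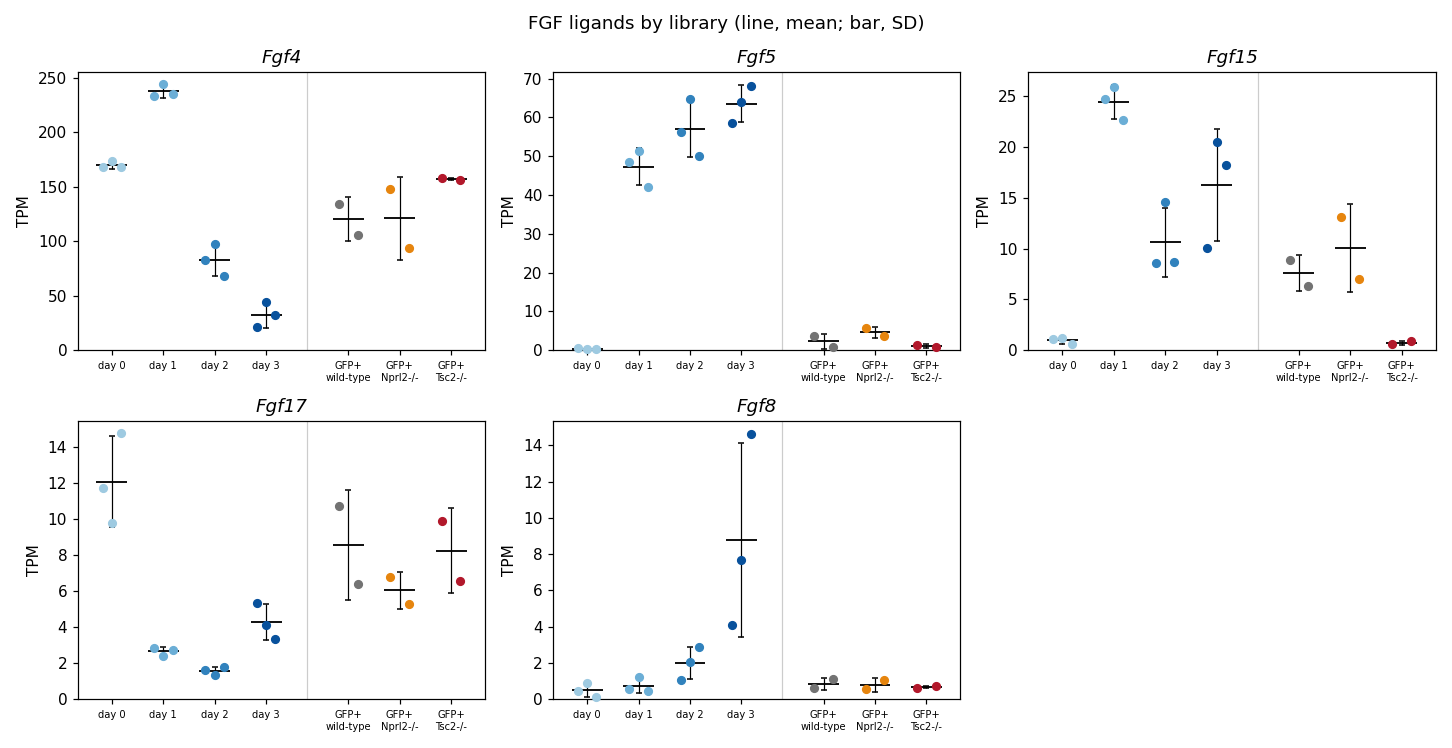
TPM of the 5 ligands (vertical axes, 1 panel a gene) in each of the 18 libraries, grouped along the horizontal axis by day of differentiation and, right of the grey line, by GFP+ genotype; points are libraries, lines means and bars SD. *Fgf4* is highest at day 1, a step from day 0 that was not called, and falls to 20.9 to 44.7 TPM at day 3. *Fgf5* appears at day 1, *Fgf8* rises at day 3, and *Fgf15* is at 0.617 and 0.894 TPM in *Tsc2* KO.

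Because TPM corrects for length, the ligands could be added up. Their sum was 184 ± 2.36 TPM at day 0 (SD, n = 3), 313 ± 11.3 TPM at day 1, 154 ± 24.5 TPM at day 2 and 125 ± 23.1 TPM at day 3. *Fgf4* supplied 92.4 ± 1.01% of this sum at day 0, 76.0 ± 1.42% at day 1, 53.7 ± 1.74% at day 2 and 25.4 ± 5.54% at day 3. *Fgf5* supplied 0.195 ± 0.0628% at day 0 and 15.1 ± 1.08% at day 1, and then 37.1 ± 1.14% and 51.5 ± 7.01% at days 2 and 3. The shares of both genes did not overlap between any 2 days, so the mixture passed from almost all *Fgf4* to a majority of *Fgf5* with an intermediate make-up on each day. *Fgf8* and *Fgf17* together with *Fgf15* supplied the remainder, of which *Fgf15* was 12.7 ± 2.28% of the sum at day 3.

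**Figure D2:**
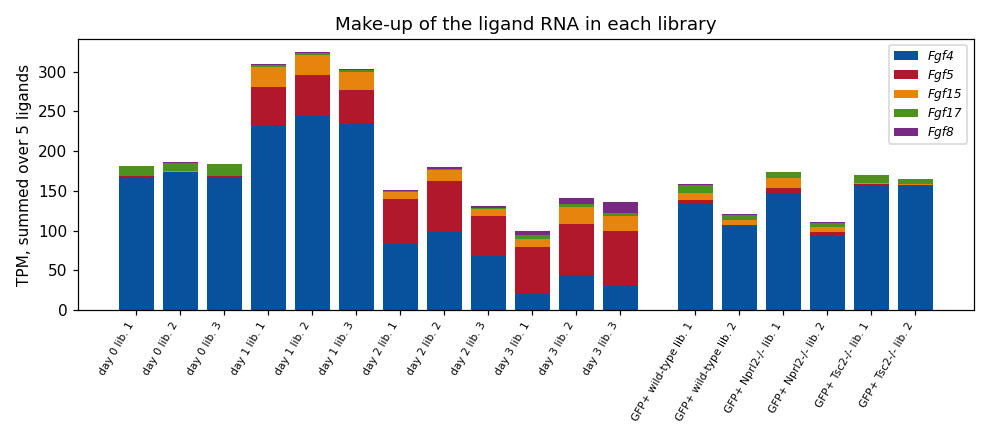
Stacked bars give the TPM of each of the 5 ligands (vertical axis, summed) in every library (horizontal axis, by group). *Fgf4* makes up 91.4 to 93.4% of the bar at day 0 and 21.2 to 31.7% at day 3, where *Fgf5* makes up 45.4 to 59.2%; in the GFP+ libraries *Fgf4* makes up 84.7 to 94.6%.

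*Fgfr1* (chr8:25518759-25575718, GRCm38), the main FGF receptor of mESCs, was the most abundant receptor in every library. It was at 41.5, 42.2 and 39.0 TPM at day 0 and 41.8, 37.9 and 45.0 TPM at day 1, which overlapped (log2 fold change 0.09, SE 0.07, edgeR adjusted p = 0.24). It was at 59.3, 59.7 and 62.2 TPM at day 2 and 78.5, 74.0 and 89.4 TPM at day 3. Each of these days lay above the one before in every library, with a rise of 0.43 (SE 0.07, adjusted p = 1.61e-05) and then 0.37 (SE 0.06, adjusted p = 0.000317) on the log2 scale. The rise over 3 days was 1.86-fold. Annotated lncRNAs overlap this gene too, with the same limit as for *Fgf15* and *Fgf17*.

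The *Fgfr1* reads were divided mainly between 2 transcripts whose coding parts differ by 6 bases and whose ends differ too (chr8:25557815-25557820), shown in capitals with 20 bases on either side because little sequence separates the estimates.
Fgfr1 alternative bases: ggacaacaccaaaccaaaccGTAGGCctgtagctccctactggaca
The transcript without them made up 31.4 to 42.9% of *Fgfr1* TPM at day 0, 29.0 to 49.1% at day 1, 29.4 to 33.5% at day 2 and 35.7 to 46.0% at day 3. These ranges overlapped between neighbouring days, except between days 2 and 3, with no test made of transcript shares.

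*Fgfr2* (chr7:130162451-130266808, GRCm38), the receptor that in the blastocyst acts in the primitive endoderm and trophectoderm, rose within the first day. It was at 2.33, 1.72 and 2.26 TPM at day 0 and at 9.08, 9.47 and 10.9 TPM at day 1, a log2 fold change of 2.29 (SE 0.26, edgeR adjusted p = 2.05e-05). Day 2 held 9.09, 13.2 and 15.7 TPM, and day 3 held 21.4, 14.0 and 13.8 TPM. Neighbouring days after day 1 overlapped and were not called (adjusted p = 0.339 and 0.244). The rise from day 0 to day 3 was 7.36-fold (log2 2.88, SE 0.26, adjusted p = 1.46e-06). Day 3 was called above day 1 (0.59, SE 0.21, adjusted p = 0.0271), but not without day 3 library 1 (0.34, adjusted p = 0.0774) or without either of the day 1 libraries 1 and 2 (adjusted p = 0.0794 and 0.0709), nor with no filter on low counts (0.0559). The share of *Fgfr2* in the summed receptor TPM was 4.47 ± 0.792% at day 0 (SD, n = 3) and 17.7 ± 1.08% at day 1, while *Fgfr1* made up 86.9 ± 0.771% and 74.8 ± 1.03%.

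RefSeq lists *Fgfr2* transcripts with either of a pair of exons for the second part of the third immunoglobulin-like loop, IIIb (chr7:130199758-130199905, minus strand, 148 bases) or IIIc. IIIb receptors bind ligands such as Fgf10 and Fgf7, and IIIc receptors bind Fgf4 and Fgf8. The IIIb exon is shown in capitals between 20 flanking bases on either side, since this choice of exon decides ligand binding.
Fgfr2 IIIb exon: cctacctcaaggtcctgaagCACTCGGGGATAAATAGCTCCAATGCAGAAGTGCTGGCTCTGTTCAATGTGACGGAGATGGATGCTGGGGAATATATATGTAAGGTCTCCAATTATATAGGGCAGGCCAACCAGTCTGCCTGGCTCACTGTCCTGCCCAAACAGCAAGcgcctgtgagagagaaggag
The listed IIIb transcript also lacks 2 exons of the first loop (267 and 78 bases), so its estimate reads both differences at once. The IIIc transcript was the major one in every library. It was at 1.72 to 2.33 TPM at day 0, 7.75 to 8.22 TPM at day 1, 6.26 to 12.8 TPM at day 2 and 11.6 to 16.6 TPM at day 3. The IIIb transcript was at 0 to 0.315 TPM at day 0 and 0.852 to 3.15 TPM at day 1. It made up 9.39 to 28.9% of the gene at day 1, 18.9 to 31.2% at day 2 and 15.5 to 22.4% at day 3, ranges that overlapped. The day 0 estimates of IIIb rest on at most 10.8 estimated counts a library.

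*Fgfr3* (chr5:33721724-33737068, GRCm38) and *Fgfr4* (chr13:55152818-55168759, GRCm38) were low throughout. *Fgfr3* was at 2.82 to 3.30 TPM at day 0, 3.12 to 3.31 TPM at day 1, 2.84 to 3.70 TPM at day 2 and 3.04 to 4.10 TPM at day 3. All days overlapped, and no pair of days was called (log2 fold change 0.20 from day 0 to day 3, SE 0.15, edgeR adjusted p = 0.24). *Fgfr4* was at 1.03, 1.38 and 0.835 TPM at day 0, 1.04, 0.810 and 0.937 TPM at day 1 and 1.30, 1.15 and 1.46 TPM at day 2. It held 0.423, 0.495 and 0.583 TPM at day 3, below every earlier library, from 10 to 12 counts each. Its fall by 1.42 on the log2 scale from day 2 to day 3 (SE 0.29, adjusted p = 0.00118) followed 3 days, 0 to 2, that were not called apart (adjusted p = 0.222 to 0.627). The 5 transcripts listed for *Fgfr3* could not be compared: at day 1 the estimated share of one of them ran from 0 to 100% between libraries.

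The summed receptor level was 47.1 ± 1.85 TPM at day 0 (SD, n = 3), 55.5 ± 4.29 TPM at day 1, 77.6 ± 5.28 TPM at day 2 and 101 ± 7.71 TPM at day 3. Ligand TPM per receptor TPM was 3.91 ± 0.163 at day 0, 5.66 ± 0.636 at day 1, 2.00 ± 0.382 at day 2 and 1.25 ± 0.284 at day 3. Mean summed ligand and receptor levels thus came closer together after day 1, the former lower and the latter higher on each day. The ligand sums of days 2 and 3 overlapped, at 132 to 180 TPM and 98.9 to 141 TPM, and no test was made of the sums.

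**Figure D3:**
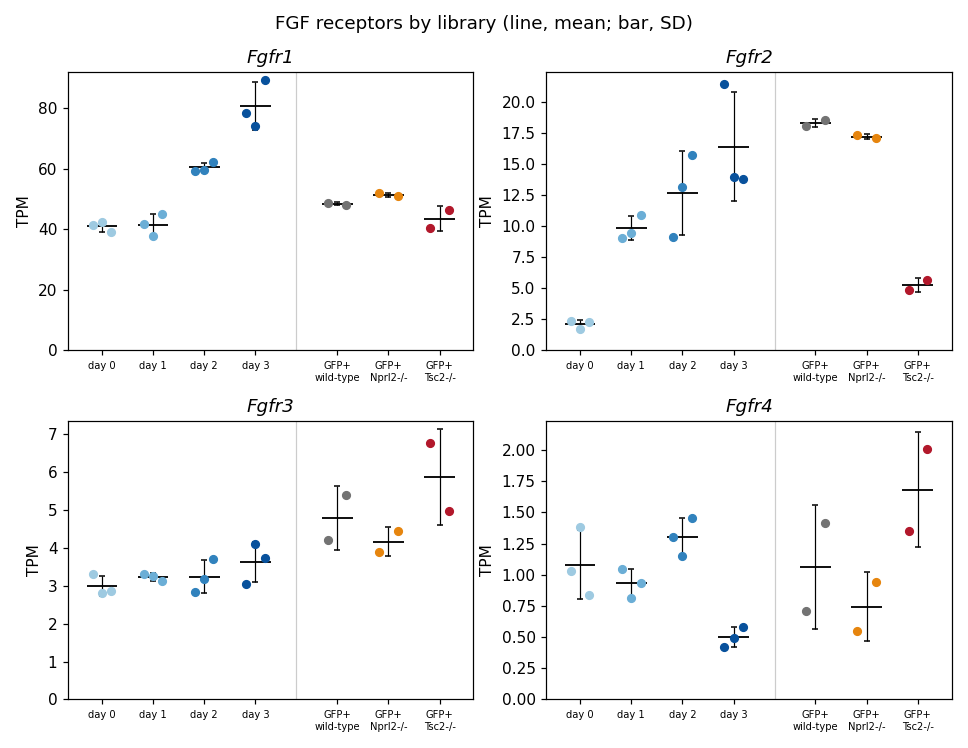
TPM of the 4 receptors (vertical axes, 1 panel a gene) in each of the 18 libraries, grouped along the horizontal axis by day and, right of the grey line, by GFP+ genotype; points are libraries, lines means and bars SD. *Fgfr1* climbs to 74.0 to 89.4 TPM at day 3, *Fgfr2* rises between day 0 and day 1 and is at 4.82 and 5.65 TPM in *Tsc2* KO, and *Fgfr3* days overlap.

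**Figure D4:**
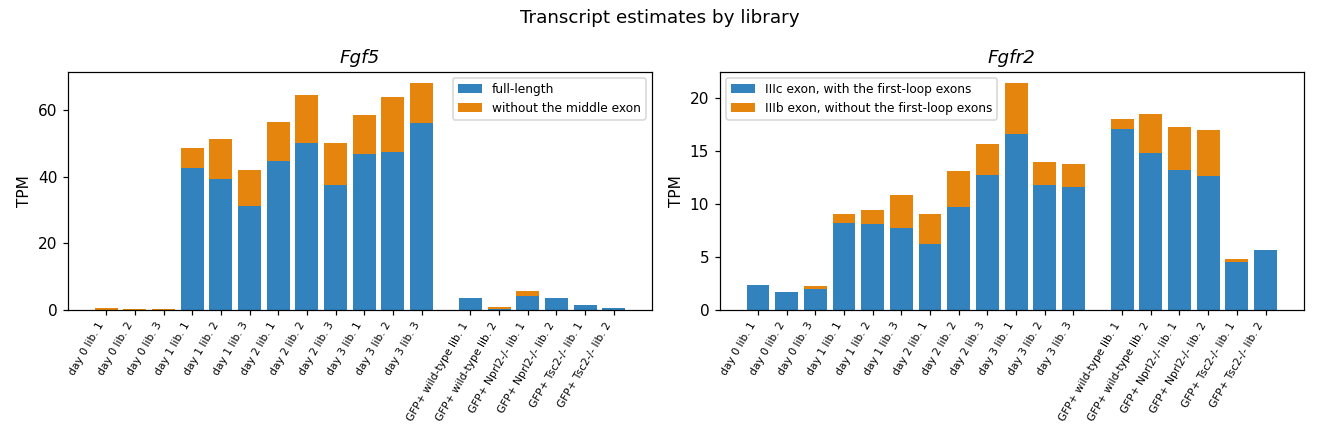
Stacked bars give the TPM assigned to each listed transcript of *Fgf5* (left) and *Fgfr2* (right) in every library along the horizontal axis. The full-length *Fgf5* form and the IIIc form of *Fgfr2* make up most of each tall bar; at day 3 the short *Fgf5* form is at 17.5 to 26.0% and the IIIb form at 15.5 to 22.4%.

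Among 12049 genes with a mean of at least 1 on the log2 CPM scale, those named below were among the 3 whose course over the 12 time-course libraries was most like that of each member, as a description in which all points share the same libraries and days. *Etv5*, an Erk-responsive transcription factor, was nearest to *Fgf4* (Pearson r = 0.993), followed by *Zfp981* (0.993) and *Psma8* (0.991). *Vrtn* (0.999), *Pcdh1* (0.997) and *Acsl4* (0.997) were nearest to *Fgf5*. For *Fgf15* they were *Duxbl2* and *Duxbl3* (both 0.990), near-identical copies whose reads cannot be told apart, and *Efnb2* (0.987). *Fgf17* was followed by *Esyt1* (0.984) and *Rnd1* (0.977), and *Fgf8* by *Tmem63a* (0.970). Among the receptors, *Fgfr1* ran closest to *Smad4* (0.991), *Plekho1* (0.986) and *Amot* (0.985), and *Fgfr2* to *Gja1* (0.983), *Arl4c* (0.981) and *Foxh1* (0.981). *Fgfr4* ran closest to *Sarm1* (0.955), *Susd6* (0.950) and *Trp53inp1* (0.930). For *Fgfr3*, which was called on no day, the best match was lower, *Ptges3l* at 0.831, with *Cptp* at 0.754 and *Ndufb7* at 0.725.

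In GFP+ cells *Fgf15* and *Fgfr2* were lower in *Tsc2* KO than in both other genotypes, while *Fgf4*, *Fgf17*, *Fgfr3* and *Fgfr4* were called in no comparison. Both KO comparisons used the same 2 wild-type libraries. In *Nprl2* KO, edgeR called 0 of the 8 members tested, where 6.43% of genes were called (2.78% higher and 3.66% lower), and 0 had an unadjusted p under 0.05. At that unadjusted threshold 1436 of all 13725 genes tested were higher and 1554 lower. DESeq2 also called 0, as did limma on either scale, whereas *Fgf5* was called with no filter (adjusted p = 0.0123), with the replicate number as a block (0.0167) and without wild-type library 1 (0.0385). In *Tsc2* KO, 2 members were lower and 0 higher than in wild-type, where 29.1% of genes were called (14.9% higher and 14.2% lower). At an unadjusted p under 0.05 there were 3 lower and 0 higher, against 2689 lower and 2789 higher of all 13725 genes tested. These counts lay close to the background, so nothing is read from the number called. Between the KOs, 4 members were lower in *Tsc2* KO and 0 higher, where 34.2% of genes were called (17.5% higher and 16.6% lower).

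*Fgf15* was at 8.83 and 6.30 TPM in wild-type, 13.1 and 7.03 TPM in *Nprl2* KO, and 0.617 and 0.894 TPM in *Tsc2* KO. The *Tsc2* KO libraries, with 7 and 11 counts, lay below all 4 others. The gene was 10.2-fold lower than in wild-type (log2 -3.34, SE 0.42, edgeR adjusted p = 0.000208), the 19th largest fall of 13725 genes. Against *Nprl2* KO it was 13.5-fold lower (log2 -3.76, SE 0.40, adjusted p = 5.22e-05). *Nprl2* KO and wild-type overlapped (log2 fold change 0.41, SE 0.30, adjusted p = 0.465).

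*Fgfr2* was at 18.1 and 18.5 TPM in wild-type, 17.3 and 17.1 TPM in *Nprl2* KO, and 4.82 and 5.65 TPM in *Tsc2* KO. *Tsc2* KO held 3.54-fold less than wild-type (log2 -1.83, SE 0.11, edgeR adjusted p = 8.22e-07) and 3.41-fold less than *Nprl2* KO (log2 -1.77, SE 0.11, adjusted p = 3.2e-07). Both forms shown above were lower: the IIIc transcript was at 4.58 to 5.65 TPM in *Tsc2* KO and 14.8 to 17.1 TPM in wild-type. The IIIb transcript was at 0 to 0.240 TPM in *Tsc2* KO, 1.00 to 3.71 TPM in wild-type and 4.09 to 4.36 TPM in *Nprl2* KO. *Nprl2* KO and wild-type levels of the gene were close (log2 fold change -0.06, SE 0.10, adjusted p = 0.802).

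*Fgf5*, far below its day 1 level in all GFP+ cells, was at 3.66 and 0.957 TPM in wild-type, 5.65 and 3.59 TPM in *Nprl2* KO and 1.45 and 0.703 TPM in *Tsc2* KO. The wild-type libraries differed from each other, with 54 and 11 counts, and overlapped with both KOs. Neither KO was called apart from wild-type (log2 fold changes 0.94 and -1.20, edgeR adjusted p = 0.378 and 0.22), and without wild-type library 1 they were 2.23, called at an adjusted p of 0.0385, and 0.093. Without wild-type library 2 the value for *Tsc2* KO was -1.79, called at an adjusted p of 0.0117. *Tsc2* KO was below *Nprl2* KO in both libraries, by 2.14 on the log2 scale (SE 0.59, adjusted p = 0.0302). Without *Nprl2* KO library 1 or *Tsc2* KO library 2 that call was lost (adjusted p = 0.115 and 0.146).

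*Fgfr1* was at 48.7 and 48.1 TPM in wild-type, 51.8 and 50.9 TPM in *Nprl2* KO and 40.5 and 46.4 TPM in *Tsc2* KO. The 3 genotypes did not overlap, and the difference was small: *Tsc2* KO was 1.25-fold below *Nprl2* KO (log2 -0.32, SE 0.07, edgeR adjusted p = 0.00507) and was not called against wild-type (-0.19, SE 0.07, adjusted p = 0.0768). Without *Tsc2* KO library 1 the first of these was -0.24, with an adjusted p of 0.0662, and limma did not call it on either scale (adjusted p = 0.0641 and 0.0648).

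The other members were not called between genotypes in the fit used throughout. *Fgf4* was at 134 and 106 TPM in wild-type, 148 and 94.3 TPM in *Nprl2* KO and 158 and 157 TPM in *Tsc2* KO, where both libraries lay above the rest (log2 fold change 0.35 against wild-type, SE 0.26, edgeR adjusted p = 0.399). Fitted with the 2 groups alone, that difference had an adjusted p of 0.0291, and it was also called without either *Nprl2* KO library (adjusted p = 0.0296 and 0.0249) and with no filter on low counts (8.27e-05). *Fgf4* was called between the KOs with no filter (adjusted p = 0.000564) and without *Nprl2* KO library 1 (0.67, adjusted p = 0.00443). *Fgf17* was at 10.7 and 6.39 TPM in wild-type, 6.79 and 5.30 TPM in *Nprl2* KO and 9.92 and 6.59 TPM in *Tsc2* KO, which overlapped. *Fgfr3* was at 4.20 and 5.39 TPM in wild-type, 3.90 and 4.44 TPM in *Nprl2* KO and 6.76 and 4.98 TPM in *Tsc2* KO. *Fgfr4* was at 0.710 and 1.41 TPM in wild-type, 0.548 and 0.943 TPM in *Nprl2* KO and 1.35 and 2.01 TPM in *Tsc2* KO, the last with a log2 fold change of 1.07 over *Nprl2* KO (SE 0.41, adjusted p = 0.0629). This *Fgfr4* difference was called in 6 of 14 alternatives, among them without either wild-type library (adjusted p = 0.0448 and 0.0467), and its adjusted p ran from 0.0154 to 0.33. *Fgf8*, not tested, was at 0.549 to 1.11 TPM in all 6 libraries.

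**Figure D5:**
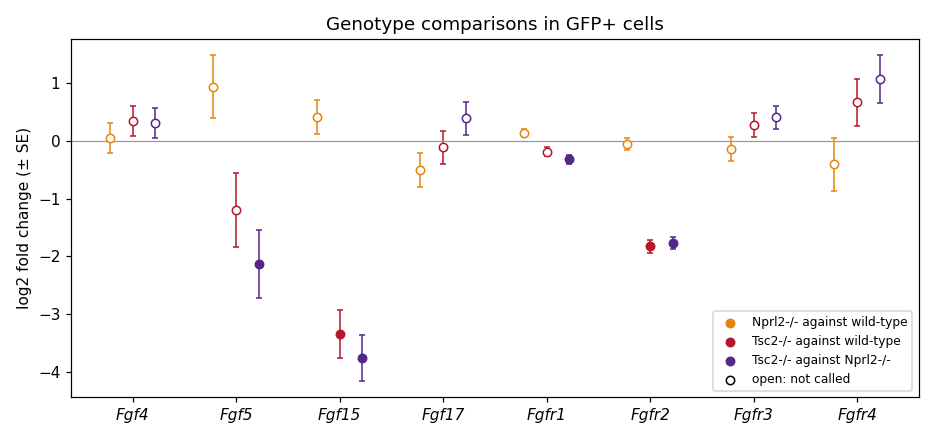
Log2 fold changes of the 8 members tested (vertical axis, with bars of SE) in the 3 comparisons of GFP+ genotypes, from edgeR; filled points are called and open points are not. *Fgf15* and *Fgfr2* lie well below 0 in both *Tsc2* KO comparisons, at -3.34 and -1.83 against wild-type, and every *Nprl2* KO point is open.

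Several marker groups moved with these results, and their part in them was not tested. For the counts below, 29.1% of all genes tested were called in *Tsc2* KO against wild-type and 6.43% in *Nprl2* KO. In *Tsc2* KO, 8 of 10 naive markers were higher than in wild-type and 0 lower (median log2 fold change 0.97, against 0.00 over all genes tested), with a summed level of 2600 to 2711 TPM against 1523 to 1568 TPM. Of the 8 formative markers other than *Fgf5*, 6 were lower and 0 higher (median -1.63), with 192 to 220 TPM against 517 to 657 TPM. In *Nprl2* KO, 6 naive markers were lower and 0 higher (median -0.73), at 1072 to 1113 TPM. General pluripotency markers, at 2638 to 3224 TPM in the 6 GFP+ libraries, had 1 of 6 higher and 3 lower in *Tsc2* KO. Fibroblast markers, which the feeder layer could supply, summed to 125 to 175 TPM in wild-type, 131 to 137 TPM in *Nprl2* KO and 44.0 to 159 TPM in *Tsc2* KO, against 11.1 to 45.1 TPM over the time course. *Col1a1* was at 60.3 TPM in *Tsc2* KO library 1 and at 15.0 TPM in library 2. In library 1, where these markers summed to 159 TPM, *Fgf15* was at 0.617 TPM and *Fgfr2* at 4.82 TPM, and in library 2, where they summed to 44.0 TPM, the 2 genes were at 0.894 and 5.65 TPM. None of the 12 fibroblast markers was at 0 throughout the GFP+ libraries, and 0 of the 8 tested were called between genotypes. Primitive endoderm markers summed to 394 to 418 TPM in *Tsc2* KO and 228 to 238 TPM in wild-type, with 1 of 10 tested higher (*Sparc*) and 0 lower.

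Over the time course the naive markers fell, with 10 of 10 lower at day 3 than at day 0 (median log2 fold change -6.46, against -0.01 over all genes tested), and 7 of 8 formative markers were higher and 1 lower. Between these days 70.9% of all genes tested were called. Of the 9 fibroblast markers tested, 5 were higher and 3 lower. Early neural markers summed to 26.3 to 27.3 TPM at day 0 and 98.0 to 120 TPM at day 3. Of the 5 tested, 2 were higher and 1 lower, with a median log2 fold change of -0.23. *Nes* led the rises, from 10.2 to 16.6 CPM at day 0 to 268 to 338 CPM at day 3, while *Ncam1* went from 54.6 to 65.7 CPM to 11.7 to 16.0 CPM. Of the primitive streak markers tested, 3 of 5 were higher at day 3 and 2 lower, and of the general pluripotency markers 2 of 6 were higher and 4 lower. Markers of the primitive endoderm, where *Fgfr2* is known to act, went from 262 to 327 TPM at day 0 to 181 to 220 TPM at day 3, with 3 of 12 higher and 7 lower, while *Fgfr2* rose.

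Day 0 cells and GFP+ wild-type cells come from separate experiments, so their levels stand side by side without a test. *Fgf4* was at 168 to 174 TPM at day 0 and at 134 and 106 TPM in GFP+ wild-type, and *Fgfr1* at 39.0 to 42.2 TPM and at 48.7 and 48.1 TPM. *Fgfr2* was at 1.72 to 2.33 TPM at day 0 and at 18.1 and 18.5 TPM in GFP+ wild-type, and *Fgf15* at 0.591 to 1.22 TPM and at 8.83 and 6.30 TPM. The *Tsc2* KO levels of *Fgf15* lay within the day 0 range, and those of *Fgfr2* between the day 0 and wild-type levels. The naive marker *Klf4* was at 185 to 205 TPM at day 0, 29.7 and 25.5 TPM in GFP+ wild-type, and 58.1 and 67.7 TPM in *Tsc2* KO. The culture medium of the day 0 cells is not given in the labels.

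Among the other genes of the pathway were the remaining FGF genes with *Fgfrl1*, a receptor-like protein without a kinase. They summed to 15.9 to 21.6 TPM at day 0 and 40.2 to 44.4 TPM at day 3, and 9 of 18 passed the filter in the time course. From day 0 to day 3, 4 of these were higher and 2 lower, which is 66.7% called against 70.9% of all genes tested. Their median log2 fold change was 0.75, against -0.01 over all genes tested. The leading rises were in *Fgf14* (6.48, SE 0.45, edgeR adjusted p = 1.42e-10) and *Fgf13* (2.24, SE 0.16, adjusted p = 2.58e-10), which encode intracellular FGF homologous factors that do not signal through the receptors. The size of the *Fgf14* rise is uncertain: it was at 0.164, 0.0663 and 0 CPM at day 0, under the floor of 3 counts, and at 7.38 to 7.81 CPM at day 3. *Fgf10*, a ligand of the IIIb form, fell by 2.83 (SE 0.31, adjusted p = 1.44e-07) from 1.39 ± 0.199 TPM (SD, n = 3). It ended at 0.407, 0.362 and 0.678 CPM at day 3, near the floor of 3 counts (0.205 to 0.231 CPM), so the size of this fall is uncertain too. In *Tsc2* KO against wild-type, 3 of 5 tested were lower and 0 higher (*Fgf1*, *Fgf13* and *Fgfrl1*), and in *Nprl2* KO 0 of 5 were called. Of all genes tested, 29.1% were called in *Tsc2* KO and 6.43% in *Nprl2* KO.

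Of the co-receptors and heparan sulfate core proteins, which present ligands to the receptors, 6 of 11 tested were higher at day 3 than at day 0 and 3 lower (median 0.55). That is 81.8% called, against 70.9% of all genes tested. *Gpc6* and *Gpc1*, glypicans on the cell surface, led the rises, at 2.07 and 1.81 on the log2 scale (edgeR adjusted p = 1.67e-08 and 1.17e-09), and the syndecan *Sdc4* led the falls at -1.01. Of 19 heparan sulfate synthesis genes tested, 5 were higher and 9 lower (median -0.15), or 73.7% called, close to that background. *Hs6st2*, a 6-O-sulfotransferase, led the rises at 3.83 (SE 0.16, adjusted p = 6.93e-14), from 0.574 ± 0.0792 TPM to 8.44 ± 0.904 TPM (SD, n = 3). In *Tsc2* KO the same gene led the falls against wild-type, at -2.11 (SE 0.28, adjusted p = 0.00069), followed by *Sulf1*, a 6-O-sulfatase, at -1.24. In that comparison 3 of 18 synthesis genes were lower and 0 higher, and 2 of 11 co-receptor and core protein genes were lower and 0 higher, led by *Gpc3* at -1.21. In *Nprl2* KO 1 of 18 and 2 of 11 were called. Of all genes tested, 29.1% were called in *Tsc2* KO and 6.43% in *Nprl2* KO.

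The relay from receptor to Erk was expressed in full, with all 19 genes tested in both experiments. From day 0 to day 3, 9 were higher and 7 lower (median -0.05), or 84.2% called against 70.9% of all genes tested. They were led by *Mapk3*, which encodes Erk1, at 1.38 (SE 0.07, edgeR adjusted p = 1.67e-12) and by the docking protein gene *Gab1* at -1.41. In *Tsc2* KO, 1 was higher and 5 lower than in wild-type, led by *Mapk3* at -0.65 (SE 0.10, adjusted p = 0.00038), and in *Nprl2* KO 1 was lower. The shares called were 31.6% and 5.26%, against 29.1% and 6.43% of all genes tested. Of the 17 Erk feedback and target genes tested, 8 were higher and 4 lower at day 3 than at day 0 (median 0.39). That is 70.6% called, near the 70.9% of all genes tested, so nothing is read from this number. Over the first day alone 11 were higher and 4 lower (median 0.62, against 0.00 over all genes tested), and from day 1 to day 3 there were 7 higher and 8 lower. Each of these is 88.2% called, against 60.9% and 71.2% of all genes tested. Their summed level was 550 to 710 TPM at day 0, 877 to 937 TPM at day 1 and 604 to 693 TPM at day 3, so day 3 lay within the day 0 range. The Erk phosphatase gene *Dusp4* led the rises of the first day, at 4.25 (SE 0.10, adjusted p = 4.44e-17), and *Fos* the falls, at -3.54 (SE 1.04, adjusted p = 0.017). In *Tsc2* KO, 2 were higher (*Etv4* and *Etv1*) and 6 lower than in wild-type, with *Egr1*, *Spry2* and *Dusp4* leading the falls at -1.28, -1.15 and -0.79. *Egr1* was low, at 1.54 and 1.44 CPM in wild-type and 0.641 and 0.580 CPM in *Tsc2* KO. In *Nprl2* KO 1 was higher (*Etv5*) and 3 lower, led by *Spred1* at -0.86. The shares called were 47.1% in *Tsc2* KO and 23.5% in *Nprl2* KO, against 29.1% and 6.43% of all genes tested.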

How the data were processed

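RNA-seq libraries of the time course (3 a day) and of sorted GFP+ cells (2 a genotype) were analysed from the authors' deposited tables. Per the submitters' processing notes, the authors quantified reads with kallisto 0.42.1 and name build mm10; the deposited files list estimated counts and TPM for 34079 RefSeq transcripts, and a table of gene TPM. The authors' DESeq2 comparison columns were not used. For 9 members, gene TPM matched the sum over transcripts.

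Transcripts were assigned to 24296 genes with RefSeq (GRCm38.p6) and GENCODE M21 tables, leaving out 174; estimated counts were summed per gene and rounded. edgeR 4.0.16 (R 4.3.3; TMM, filterByExpr, robust quasi-likelihood F test, Benjamini-Hochberg over all genes tested) was fitted to each experiment apart. Alternatives were DESeq2 1.42.0, limma 3.58.1 on log2(TPM + 1) and log2(TPM + 0.1), upper-quartile normalization, 2 filters, a replicate block, the compared groups alone, and leaving out each library. The edgeR step was tested on simulated data. Likeness of course was Pearson's r of log2(CPM + 0.25). Exon sequences come from GENCODE M21 (GRCm38).

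Named were the members, *Nprl2*, *Tsc2* and *Zfp42*, the 3 genes most like each member, and per list the called genes with the largest rise and fall, at most 3 each. A few markers (*T*, *Wnt3*, *Col1a1*, *Klf4*) were named after their values were seen. Members and lists were chosen with earlier results of these data known. Depth was 8610357 to 15305054 estimated counts a library, and a count of 3 was taken as the floor; intervals cover counting error only. Methods of the time-course libraries are not given in the sources used here. A few items among the nearest genes and exon sequences are not reported here.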

Additional observations from a re-analysis of the deposited data

How the results depend on the processing

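Of 41 called member results, 35 kept their direction and their call under every alternative run; the exceptions were *Fgf8* at day 2 against day 0, *Fgf5*, *Fgf15* and *Fgfr2* at day 3 against day 1, and *Fgf5* and *Fgfr1* between the KOs. No called result changed sign. Of 33 results not called, 23 stayed so throughout. With at least 10 counts required in every library, 5 members were called at day 3 against day 0, where *Fgf5*, *Fgf8* and *Fgf15* were not tested, and 1 in *Tsc2* KO against wild-type, where *Fgf15* was not tested. With no filter, 1 member was called in *Nprl2* KO (*Fgf5*) and 4 in *Tsc2* KO against wild-type. Leaving out a library gave 0 to 1 members in *Nprl2* KO, and the 1 was *Fgf5* without wild-type library 1. The replicate numbers were not taken to pair the libraries. Same-numbered libraries correlated at -0.113 to 0.133 in the time course. In the GFP+ libraries, which hold only 2 a group, they correlated at 0.0848 to 0.164, positive in every pair. There, *Fgf4*, *Fgf5* and *Fgf17* were higher in library 1 than in library 2 of every genotype, and *Fgf8* and *Fgfr4* lower. The other members did not keep 1 direction. A shift shared by GFP+ libraries of the same number is therefore possible, and the main fit does not model it. With the replicate number as a block, 1 member was called in *Nprl2* KO (*Fgf5*) and 4 in *Tsc2* KO against wild-type (*Fgf5* and *Fgfr1* as well). The results that reversed were all uncalled. Leaving out a library, log2 fold changes ran from -0.31 to 0.064 for *Fgfr4* and from -0.0044 to 1.30 for *Fgf8* at day 1 against day 0, and from -0.010 to 0.21 for *Fgfr3* at day 3 against day 2. In *Nprl2* KO they ran from -0.33 to 0.34 for *Fgf4*, -0.32 to 0.033 for *Fgfr3*, -0.88 to 0.15 for *Fgfr4* and -0.093 to 0.80 for *Fgf15*, and in *Tsc2* KO against wild-type from -0.45 to 0.31 for *Fgf17* and -1.79 to 0.093 for *Fgf5*. With limma *Fgf4* was at -0.017 on both scales in *Nprl2* KO. Apart from fewer genes or libraries, the cause was not tested. Depth limits *Fgf8*, *Fgfr4*, the day 0 and GFP+ levels of *Fgf5*, and *Fgf15* at day 0 and in *Tsc2* KO, where its fold change rests on 7 and 11 counts.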
